A study of Mus musculus with 6 samples.

Results

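Aquaporin-4 and the dystrophin complex were examined in quadriceps muscle through 8 genes, namely Aqp4, Aqp1, Dmd, Utrn, Dag1, Sgca, Sgcb and Sgcd. All probes whose platform annotation gives 1 of these symbols were taken, which gave 23 of the 45281 probes on the array. The genes were chosen by their measured log2 difference between the RXF393 and SKRC39 arrays and by their known roles, so the values of that comparison are a description and carry no test. Of the 23 probes, 13 passed the detection filter (a detection p-value below 0.05 on at least 2 of 6 arrays), 11 of them on all 6 arrays, and 10 did not pass. The tested probes stand for 7 of the 8 genes, because no Dmd probe was detected on any array.

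The dystrophin complex spans the membrane of the muscle fibre. Dystrophin, and its homologue utrophin at the neuromuscular junction, bind actin inside the fibre and dystroglycan in the membrane, dystroglycan binds laminin outside, and the sarcoglycans stabilise dystroglycan in the membrane. Aquaporin-4 is the water channel of fast fibres and is anchored at the membrane by the dystrophin complex. Aquaporin-1 is a water channel of the capillary endothelium and of red cells.

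All mice were of the NOD-SCID strain, which lacks functional T and B lymphocytes, were fed ad libitum, and each had received 5.0 × 10⁶ human renal cancer cells under the skin 22 days earlier. One group carried RXF393 cells, which the labels call cachectic (cachexia being wasting of muscle and fat in tumour bearers), and the other SKRC39 cells, described as not cachectic. Each line is a single tumour model, so a difference between the groups is a difference between these lines, and no mice without a tumour were analysed here. The age of the mice is not given in the sources used here. RNA was prepared mouse by mouse, which is read here as 1 mouse per array.

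On 4 of the 6 arrays the title and the characteristics agree on the line, SKRC39 replicates 1 and 2 and RXF393 replicates 2 and 3, numbered by title. The array titled RXF_1 is described as SKRC39 in its characteristics and the array titled SKR_3 as RXF393, so these 2 arrays belong to no group and are given apart. Probes detected made up 30.3% to 37.7% of all probes per array, and array medians of non-normalized intensity lay between 129.0 and 140.2. RXF393 replicate 3 and the array titled SKR_3 stood apart in how probes of 1 gene compared. Among 2597 genes for which both SKRC39 arrays detected at least 2 probes, the changes of a gene's probes against the SKRC39 mean differed by over 4-fold in 655 genes (25.2%) on RXF393 replicate 3 and in 586 (22.6%) on the array titled SKR_3. The counts were 33 genes (1.27%) on RXF393 replicate 2 and 8 (0.308%) on the array titled RXF_1, and 268 (10.3%) when SKRC39 replicate 2 was set against replicate 1. The last count sets 1 array against 1 other and not against a mean, so it is not like the others. The cause of this disagreement was not tested. For Aqp1, Sgca and Dag1 the changes are given below with and without RXF393 replicate 3. For Aqp4, Sgcb and Sgcd the range with 1 array left out is given. Changes of the other genes of the pathway are given only with RXF393 replicate 3 included.

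Quadriceps was checked by markers of fast and slow fibres. Of 10 fast-fibre markers, 9 had a tested probe and all 9 were detected on every array. Their summed normalized intensity was 519217 and 526526 on the SKRC39 arrays and 497664 and 462516 on the RXF393 arrays, close to the upper end of the signal, where differences are compressed. All 7 slow-fibre markers were tested, and their summed intensity varied far more, from 148324 to 171460 on the SKRC39 arrays and from 40107 to 113774 on the RXF393 arrays. Neutrophil markers, 3 of 8 tested, had sums of 228 and 554 in SKRC39 and 1891 and 6138 in RXF393, and their part in the results was not tested. Ngp, Camp, Ltf, Mpo and Elane did not pass the detection filter. Retnlg, 1 of the 3, was detected on neither SKRC39 array and passed only through arrays on which it was high.

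Among the 8 genes, Aqp4 was at background on both RXF393 arrays and bright on both SKRC39 arrays. Sgcb, Sgcd and Dag1 were higher on both RXF393 arrays than on both SKRC39 arrays by 0.73 to 1.12 log2 units at their brightest probes, and the brightest Aqp1 probe by 0.18. Sgca and Utrn overlapped between the lines. Of the 7 genes tested, 1 passed the threshold (limma with Benjamini-Hochberg adjustment over 17738 probes), with a lower level in RXF393, against 0.353% of all 10196 genes (36 genes), 0.157% lower and 0.196% higher. That gene was Aqp4, which did not pass with median scaling, cyclic loess, no intensity trend or all 6 arrays grouped by title (limma adjusted p = 0.0885, 0.0921, 0.126 and 1.00), and which was not tested when detection on all 6 arrays was required. At the brightest probes 4 genes were higher and 1 lower without overlap, beside 28.1% of all genes higher and 20.6% lower without overlap (48.7% together). Over the 13 probes, 6 were higher, 2 lower and 5 overlapped, beside 26.7% of all probes higher and 19.7% lower (46.3% together). The median change was 0.26 log2 units over the 7 genes and 0.07 over all genes. These counts restate how the genes were chosen, and nothing is read from them.

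**Figure D1:**
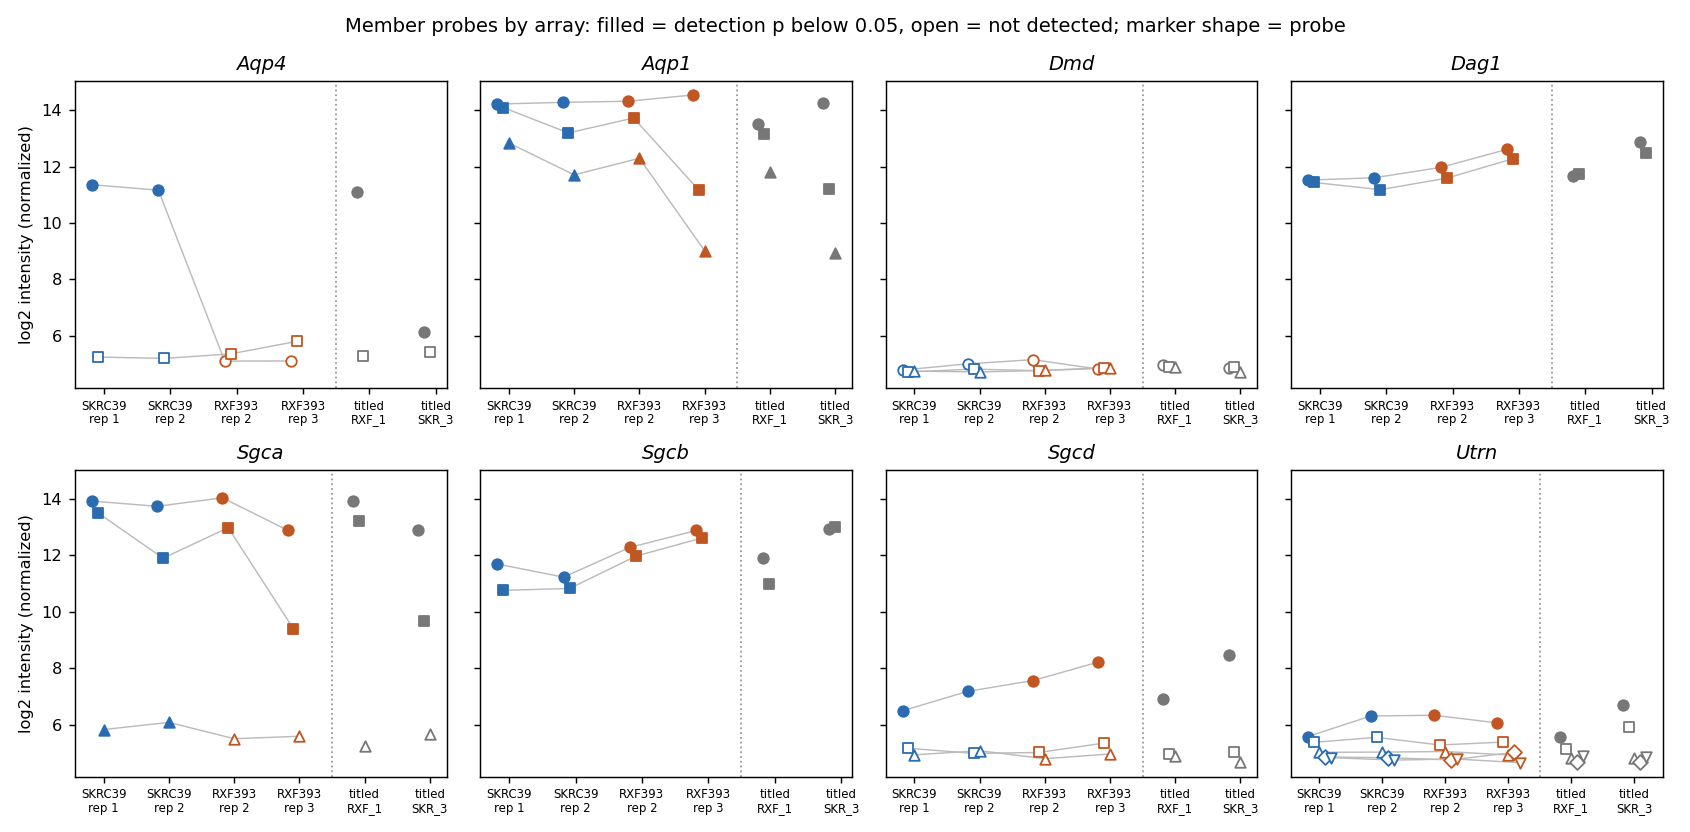
Normalized log2 intensity (vertical axis) of every probe of the 8 genes on each of the 6 arrays, with filled markers for probes detected at p below 0.05, open markers for probes not detected, 1 marker shape per probe, and the 2 arrays with conflicting labels right of the dotted line. The main Aqp4 probe lies at 11.35 and 11.16 on the SKRC39 arrays and at 5.11 on both RXF393 arrays, and no Dmd probe is filled.

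The main Aqp4 probe (ILMN_2757232) had a normalized log2 intensity of 11.35 and 11.16 on SKRC39 replicates 1 and 2 and of 5.11 on both RXF393 arrays. Both RXF393 arrays were dark for Aqp4, with detection p-values of 0.209 and 0.255, and the groups did not overlap. In the non-normalized table the same probe read 2982 and 1947 on the SKRC39 arrays and 136.0 and 134.8 on the RXF393 arrays, so the difference is already present before normalization, in values that still contain the background. In the authors' quantile-normalized table the intensities were 2729 and 2403 against 135.3 and 135.5. The group means were 11.26 ± 0.14 (SD, n = 2) for SKRC39 and 5.11 ± 0.00 for RXF393, and the change was -6.15 ± 0.62 (limma standard error). Since the probe was not detected in RXF393 muscle, the fold is a bound: set against the lowest detected signal on each RXF393 array, at 5.65 and 5.87 log2 units, Aqp4 was at least 45.3-fold lower. This bound holds only for the background correction and offset used: the whole change was -5.18 with an offset of 50, -4.08 without background correction and -4.24 in the authors' table, each smaller than the bound. In whole muscle, fewer cells of a type and less RNA per cell cannot be told apart.

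The arrays with conflicting labels split for Aqp4. The array titled RXF_1 read 11.11 log2 units, close to the SKRC39 arrays. The array titled SKR_3 read 6.14, a detected signal (detection p-value 0.0331), nearer to the RXF393 arrays. The second Aqp4 probe (ILMN_1227682) was not detected on any array, was at 5.81 log2 units at most, and gives no second measurement of the difference. Leaving out any 1 of the 4 arrays gave changes from -6.24 to -6.05. The fast-fibre markers come from the fibres that carry aquaporin-4. Most were near the top of the signal, so their detection on all 6 arrays says little of their amount. Their sums are given above for the lines and were 555960 on RXF_1 and 451341 on SKR_3. Of the 9 tested, 4 were lower and 1 higher in RXF393 without overlap, beside 20.6% and 28.1% of all genes. Their changes ranged from -0.56 to 0.07, with a median of -0.11, and their part in the Aqp4 values was not tested. The slow-fibre sums were 4551 on RXF_1 and 42714 on SKR_3. Of 3 markers of astrocytes, a cell type rich in aquaporin-4 in brain, Gfap did not pass the detection filter, Aldh1l1 was detected on 2 arrays and Slc1a3 on all 6. The summed intensity of Slc1a3 and Aldh1l1 was 215 and 641 in SKRC39, 164 and 591 in RXF393, 641 on RXF_1 and 876 on SKR_3, and the lines overlapped. Which cells of the muscle gave these signals was not tested, and no presence of astrocytes is read from them.

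Aqp1 has 3 probes, all detected on all 6 arrays, and they did not move together. The brightest (ILMN_2756486) read 14.21 and 14.27 log2 units on the SKRC39 arrays and 14.31 and 14.53 on the RXF393 arrays, a change of 0.18 ± 0.25. Both RXF393 values were the higher ones, by a margin smaller than the standard error. The array titled RXF_1 was the lowest of the 6, at 13.50, and the array titled SKR_3 read 14.23.

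The other Aqp1 probes were lower on RXF393 replicate 3 and not on RXF393 replicate 2. Probe ILMN_2980661 read 14.09 and 13.19 in SKRC39 and 13.72 and 11.17 in RXF393, a change of -1.20 ± 0.78. Probe ILMN_2980663 read 12.83 and 11.70 in SKRC39 and 12.29 and 9.02 in RXF393, a change of -1.61 ± 1.00. Both overlapped between the lines, since RXF393 replicate 2 lay between the SKRC39 arrays. Without RXF393 replicate 3 the changes of the 3 probes were 0.07, 0.08 and 0.03. They became 0.29, -2.47 and -3.25 when RXF393 replicate 2 was left out. No direction is therefore given for Aqp1. Of 10 endothelial markers 9 were tested, and their summed intensity was 16781 and 20683 on the SKRC39 arrays, 23085 and 20769 on the RXF393 arrays and 9887 on the array titled RXF_1, which was also the lowest for the brightest Aqp1 probe. The erythroid markers, of which 3 of 6 were tested, summed to 67442 and 26631 in SKRC39 and 78911 and 74755 in RXF393. Hba-a1 made up most of these sums and changed by 0.71 ± 0.41, with overlap. The much dimmer Alas2 and Slc4a1 changed by 2.61 ± 0.53 and 3.65 ± 0.67, without overlap. The part of these cell types in the Aqp1 values was not tested.

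Dmd, which encodes dystrophin, the protein missing in Duchenne muscular dystrophy, could not be measured. Its 3 probes lay between 4.72 and 5.16 log2 units on the 6 arrays and none was detected on any of them. A level below detection on these probes places only an upper limit and says nothing of a difference between the lines.

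Utrn, which encodes utrophin, had 1 of 5 probes detected. Probe ILMN_2475832 read 5.58 and 6.31 in SKRC39 and 6.33 and 6.06 in RXF393, with 5.57 on RXF_1 and 6.69 on SKR_3. It was dim on every array, with detection p-values from 0.00855 to 0.0342, and the groups overlapped. The change was 0.26 ± 0.53, and -0.11 without SKRC39 replicate 1. The 4 other Utrn probes were not detected on any array.

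**Figure D2:**
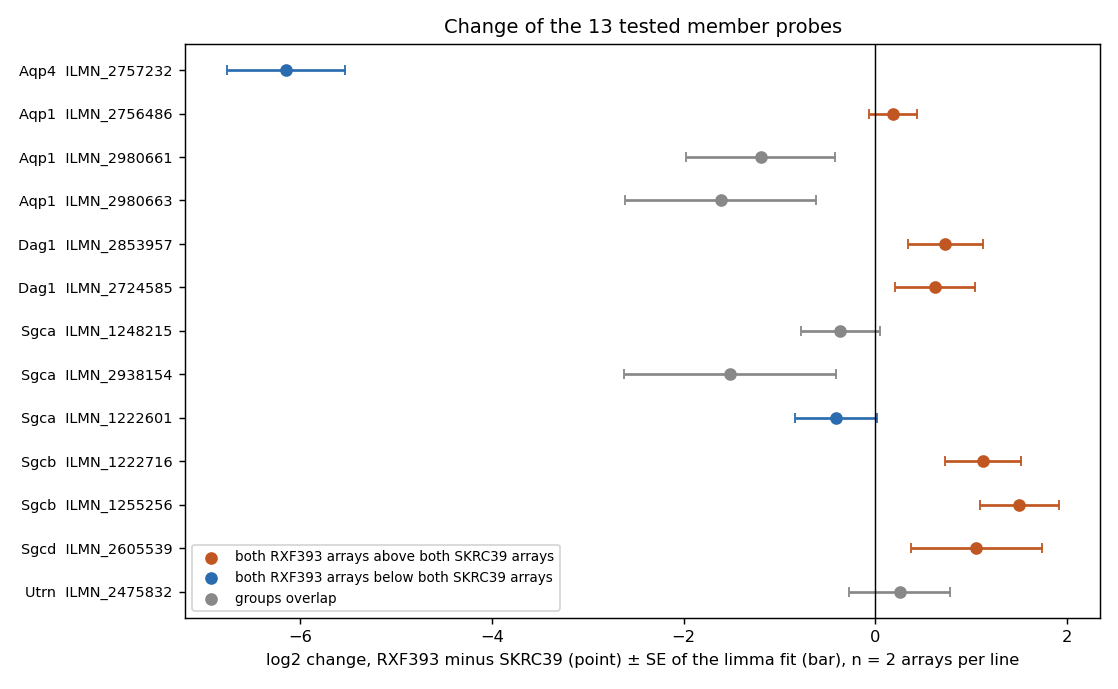
Change in log2 intensity, RXF393 minus SKRC39, of each of the 13 tested probes (point) with the standard error of the limma fit (bar), 2 arrays per line, coloured by whether the arrays of the lines overlap. Aqp4 lies at -6.15, both Sgcb probes lie at 1.12 and 1.50, and of the 6 Aqp1 and Sgca probes 1 lies above 0, the brightest Aqp1 probe at 0.18.

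Dag1 encodes dystroglycan, cleaved into an outer part that binds laminin and a part in the membrane that binds dystrophin. Its brightest probe (ILMN_2853957) read 11.52 and 11.60 in SKRC39 and 11.97 and 12.61 in RXF393. The second probe (ILMN_2724585) read 11.44 and 11.18 in SKRC39 and 11.59 and 12.28 in RXF393. For both probes both RXF393 arrays were above both SKRC39 arrays, and RXF393 replicate 3 was the higher of its group. The means were 11.56 ± 0.06 (SD, n = 2) and 12.29 ± 0.45 at the brightest probe, a change of 0.73 ± 0.39, and the second probe changed by 0.62 ± 0.42. Leaving out 1 array gave 0.41 to 1.05 and 0.28 to 0.97, the lowest values coming without RXF393 replicate 3. The array titled SKR_3 was the highest for both probes, at 12.87 and 12.49, and the array titled RXF_1 read 11.68 and 11.74.

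Sgcb encodes beta-sarcoglycan, a core subunit of the sarcoglycan complex whose loss causes a limb-girdle muscular dystrophy. Its brightest probe (ILMN_1222716) read 11.69 and 11.22 in SKRC39 and 12.28 and 12.88 in RXF393. The second probe (ILMN_1255256) read 10.75 and 10.82 in SKRC39 and 11.97 and 12.61 in RXF393. Both probes separated the lines, and by a wider gap than for Dag1. The changes were 1.12 ± 0.40 (2.18-fold) and 1.50 ± 0.41 (2.83-fold), and ranged from 0.82 to 1.42 and from 1.18 to 1.83 when 1 array was left out. The array titled SKR_3 read 12.94 and 13.01, above every array of known line, and the array titled RXF_1 read 11.89 at the brightest probe.

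Sgcd encodes delta-sarcoglycan, which pairs with beta-sarcoglycan in the core of the complex. Probe ILMN_2605539 was the 1 of 3 probes detected, and it read 6.49 and 7.18 in SKRC39 and 7.56 and 8.21 in RXF393. The lines did not overlap, but the gap between them was narrower than the spread within each line. The change was 1.05 ± 0.68 (2.08-fold), with 0.71 to 1.40 when 1 array was left out. The arrays titled RXF_1 and SKR_3 read 6.92 and 8.47.

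Sgca encodes alpha-sarcoglycan, the subunit made almost only in striated muscle. Its brightest probe (ILMN_1248215) read 13.92 and 13.73 in SKRC39 and 14.03 and 12.89 in RXF393, a change of -0.37 ± 0.41. Probe ILMN_2938154 read 13.50 and 11.90 in SKRC39 and 12.97 and 9.39 in RXF393, a change of -1.52 ± 1.11. RXF393 replicate 3 was the lowest array of known line for both, and RXF393 replicate 2 lay above or between the SKRC39 arrays. Without RXF393 replicate 3 the changes turned to 0.21 and 0.28. They became -0.94 and -3.31 when RXF393 replicate 2 was left out. On the array titled SKR_3 both probes were low as well, at 12.88 and 9.68, and on the array titled RXF_1 they read 13.93 and 13.21.

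The remaining Sgca probe (ILMN_1222601) was dim, at 5.83 and 6.08 in SKRC39 and 5.50 and 5.59 in RXF393, where it was not detected on either array (detection p-values 0.0630 and 0.0833). Its change was -0.41 ± 0.43, smaller than its standard error, and against the lowest detected signal it was at least 1.15-fold lower in RXF393. That bound holds only for the background correction and offset used. The whole change was -0.14 without background correction and -0.16 in the authors' table, each smaller than the bound. The array titled RXF_1 read 5.26, not detected and below both RXF393 arrays, and the array titled SKR_3 read 5.67, also not detected. The bound is small, and the direction of the bright Sgca probes depends on RXF393 replicate 3, so no direction is given for Sgca.

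The disagreement of probes within a gene fell on the same arrays for Aqp1 and Sgca. The changes of the 3 Aqp1 probes against the SKRC39 mean spanned 3.54 log2 units on RXF393 replicate 3, 3.31 on the array titled SKR_3 and 0.05 on RXF393 replicate 2. The bright Sgca probes spanned 2.37, 2.08 and 0.07 on these arrays. The probes of Dag1 and of Sgcb stayed within 1 log2 unit of each other on all 6 arrays by this measure. Their changes are also positive on RXF393 replicate 2, where probes of other genes rarely disagreed when set against the SKRC39 mean. That mean averages 2 arrays whose own probes disagreed in 10.3% of genes. There Sgcb was above the SKRC39 mean by 0.82 and 1.18, Dag1 by 0.41 and 0.28, and Sgcd by 0.73. The array titled RXF_1 was also above that mean, by 0.43 and 0.21 for Sgcb, 0.12 and 0.43 for Dag1 and 0.09 for Sgcd. The second Dag1 probe was thus higher on RXF_1 than on RXF393 replicate 2. Whether the disagreement and the higher level of these genes on RXF393 replicate 3 and SKR_3 share a source was not tested.

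**Figure D3:**
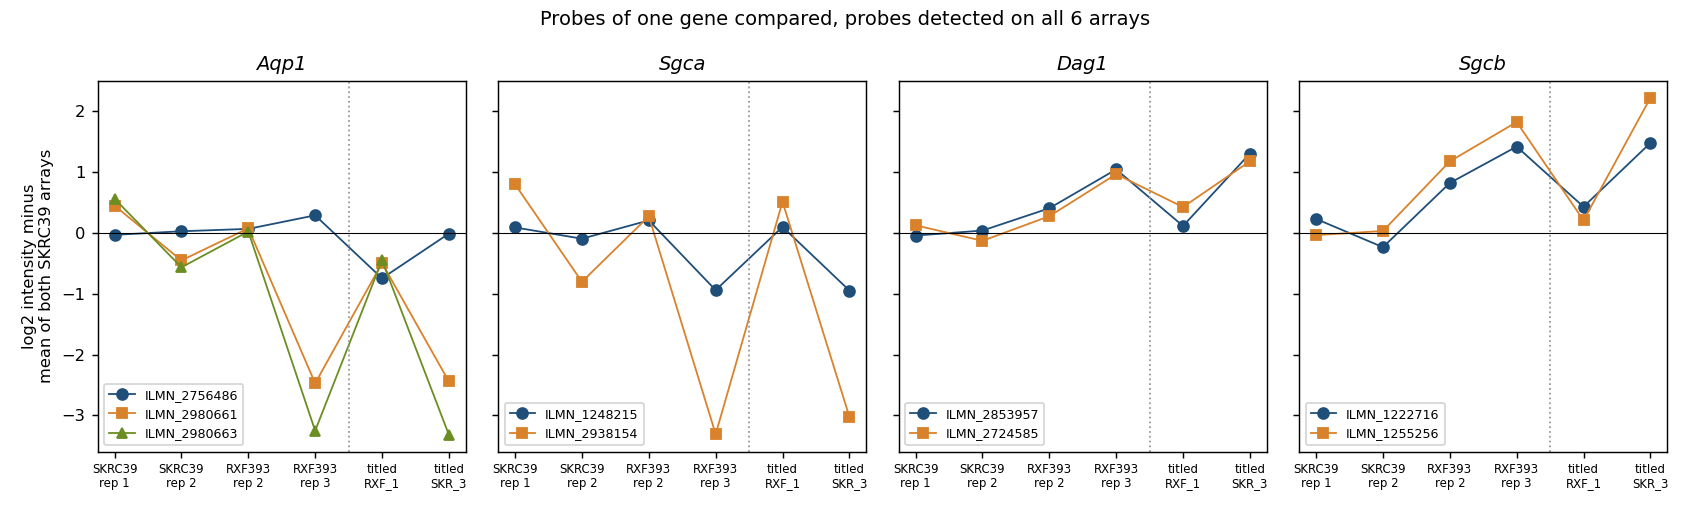
Log2 intensity of each probe detected on all 6 arrays minus its mean over both SKRC39 arrays, for the 4 genes with at least 2 such probes (1 line per probe, arrays with conflicting labels right of the dotted line). The Aqp1 and Sgca lines part on RXF393 replicate 3 and on the array titled SKR_3, by 3.54 and 2.37 log2 units on the former, while the Dag1 and Sgcb lines run together.

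The upstream sequences of Sgcb and Dag1 are shown because both genes were higher on both RXF393 arrays at both of their probes. The sequences are the 250 bases before the start in RefSeq annotation of GRCm38.p6, 5′ to 3′ on the gene's strand, and capitals mark the longest run of bases that the windows share. This run was looked for after the values were seen. The Sgcb window lies at chr5:73647738-73647987 and the Dag1 window at chr9:108263959-108264208, both on the minus strand.
Sgcb: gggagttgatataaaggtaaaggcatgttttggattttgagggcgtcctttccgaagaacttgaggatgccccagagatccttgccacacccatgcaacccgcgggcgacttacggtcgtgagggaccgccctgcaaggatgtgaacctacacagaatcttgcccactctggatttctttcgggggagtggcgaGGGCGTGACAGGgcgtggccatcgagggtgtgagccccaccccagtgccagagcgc
Dag1: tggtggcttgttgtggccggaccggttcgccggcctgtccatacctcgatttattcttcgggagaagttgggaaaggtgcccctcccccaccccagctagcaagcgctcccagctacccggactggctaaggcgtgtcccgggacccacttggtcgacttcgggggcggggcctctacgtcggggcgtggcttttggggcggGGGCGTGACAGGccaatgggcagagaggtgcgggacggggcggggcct

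The shared run GGGCGTGACAGG is 12 bases long and begins 56 bases before the Sgcb start and 48 bases before the Dag1 start. It occurs in 5 of the 32851 RefSeq mouse windows of 300 bases (250 before to 50 after a start), or 0.0152%, on either strand. These are 2 Dag1 windows and 1 each of Exoc7, Gm26730 and Sgcb. The 20 other pairs among the members' genes share runs of 7 to 10 bases at most. The run was picked as the longest that Sgcb and Dag1 share, and the 5 windows include those it was taken from. Nothing is therefore read from its rarity or its length. Windows were found for 7 of the 8 genes, 9 windows in all, with none for Aqp4. The GC box GGGCGG, the core bound by Sp1, was in 6 of the 9 windows against 35.7% of all windows, on either strand. These were the windows of Sgcb, Aqp1 and Sgcd, both of Dag1 and 1 of the 2 of Dmd, so Dag1 counts 2 times. CCAAT was in 2 of 9, both of Dag1, against 37.4%. The letters CAGCTG (an E-box of myogenic factors, in 16.3% of all windows), GTAAACA (the core of a FoxO site, in 3.65%) and TTCNNNGAA (a STAT site, in 8.30%) were in none of the 9 windows. A match here is a run of letters and was not tied to binding of any factor.

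The other genes of the pathway were taken from 6 lists with 90 entries, of which 58 genes were tested, 24 did not pass the detection filter and 8 were not analysed here. None passed the threshold by limma's test, and at an unadjusted p below 0.05 there were 1 higher and 8 lower, beside 8.10% of all genes higher and 6.69% lower at that level. Without overlap 11 were higher and 16 lower, beside 28.1% and 20.6% of all genes, and 31 overlapped. Their median change was -0.24 log2 units against 0.07 over all genes. The changes and medians of these lists all include RXF393 replicate 3. Some genes differed strongly between the RXF393 arrays. Cavin1 read 8.40 on replicate 2 and 4.76 on replicate 3, and Itga7 read 9.97 and 4.92.

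Among the other subunits of the complex, 6 of 14 were tested, 3 were higher and 2 lower without overlap, and the median change was 0.65. Dtna, which encodes alpha-dystrobrevin, a dystrophin homologue within the complex, read 11.78 and 12.33 in SKRC39 and 12.62 and 13.53 in RXF393. Its change of 1.02 ± 0.43 had an adjusted p of 0.386 by limma, and of its 5 tested probes 3 were positive and 2 negative, from -1.38 to 1.37. Dtnb, the related beta-dystrobrevin, changed by 1.23 ± 0.71 (adjusted p = 0.498). Cav3, which encodes the muscle caveolin that binds dystroglycan, read 9.90 and 11.09 in SKRC39 and 9.44 and 8.25 in RXF393, with a change of -1.65 ± 0.67 (adjusted p = 0.379). Nos1, the neuronal nitric oxide synthase anchored at the complex, was detected on 1 of the 4 arrays of known line, SKRC39 replicate 1, at 7.80. It read 5.03 on SKRC39 replicate 2 and 4.95 and 4.79 in RXF393, none of them detected. Nos1 is counted above as lower without overlap, but the gap lies among these undetected values. It passed the filter because the array titled RXF_1 also detected it, at 6.49. Sspn, which encodes sarcospan, did not pass the detection filter.

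Of the enzymes that build the laminin-binding sugar of dystroglycan, 10 of 18 were tested, 4 were higher and 2 lower without overlap, and the median change was 0.11. The 3 brightest differed little between the lines, with changes of 0.29 ± 0.35 for Rxylt1, -0.14 ± 0.38 for B4gat1 and 0.00 ± 0.37 for Dolk (adjusted p = 0.725, 0.884 and 0.997 by limma). The range over the 10 was -1.64 to 1.34.

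The ligands and neighbours of dystroglycan in the basement membrane, of which 14 of 16 were tested, had the lowest median of the 6 lists, at -0.79, with 6 lower and 0 higher without overlap. Their range was -2.33 to 0.34. The 3 brightest were Col4a1, a chain of collagen IV, at 0.34 ± 0.36, Bgn, which encodes biglycan, at -0.70 ± 0.45, and Lamc1, the laminin gamma-1 chain, at 0.10 ± 0.46 (adjusted p = 0.686, 0.523 and 0.936 by limma). The other tested Lamc1 probe changed by -1.96, the opposite direction. Fibroblast markers, all 7 of which were tested, were detected as 7 of 7 on each SKRC39 array and as 4 and 2 of 7 on RXF393 replicates 2 and 3. Their summed intensity was 28356 and 31555 in SKRC39 and 18622 and 23858 in RXF393. Dcn, which changed by -0.45 ± 0.25, made up most of these sums. The changes of the 7 markers ranged from -3.06 to -0.36, with a median of -1.89. Fibroblasts make much of this matrix, and their part in these values was not tested.

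Integrin and costamere linkers, which tie the membrane to the Z-disc beside the complex, had 13 of 19 genes tested, 2 higher and 3 lower without overlap, and a median of -0.23. Des, the intermediate filament desmin, changed by 0.29 ± 0.23, Plec, the linker plectin, by -0.59 ± 0.22 and Flnc, filamin C, by 0.15 ± 0.56 (adjusted p = 0.588, 0.348 and 0.915 by limma). Of the 4 Plec probes 3 were negative, from -1.79 to 0.04. Synm encodes synemin, an intermediate filament protein that binds desmin and dystrophin, and it was singled out after its values were seen. It read 15.23 and 14.73 in SKRC39 and 12.94 and 12.25 in RXF393, 15.07 on the array titled RXF_1 and 11.51 on the array titled SKR_3. The change was -2.38 ± 0.35 with an adjusted p of 0.0584, and all 3 of its tested probes were negative, from -2.38 to -0.67.

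Genes of membrane repair and caveolae, all 13 of which were tested, had 2 higher and 3 lower without overlap and a median of -0.16. Trim72, which encodes the repair protein MG53, changed by 0.66 ± 0.35, Anxa2, an annexin recruited to wounds, by 0.40 ± 0.40, and Dysf, dysferlin, by 0.41 ± 0.29 (adjusted p = 0.462, 0.667 and 0.562 by limma). The 4 Dysf probes ranged from -1.93 to 1.21. Of 10 other aquaporins 2 were tested and neither separated the lines. Aqp7, a glycerol channel, changed by -0.53 ± 0.55 and Aqp2, the collecting duct water channel, by -0.29 ± 0.48 (adjusted p = 0.675 and 0.809 by limma).

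**Figure D4:**
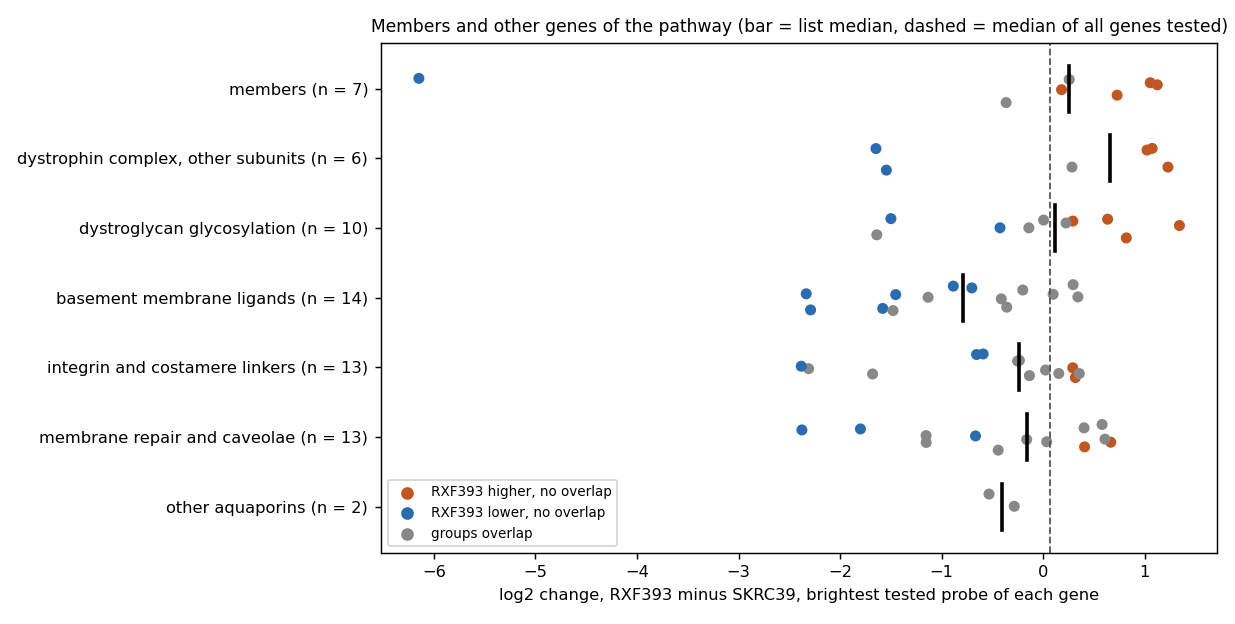
Change in log2 intensity, RXF393 minus SKRC39, of the brightest tested probe of each gene (1 point per gene) in the chosen genes and the 6 pathway lists, with the list median as a bar and the median of all genes tested, 0.07, as a dashed line. Aqp4 is the point at -6.15, and the basement membrane list has its median at -0.79 with no gene higher without overlap.

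The genes whose pattern was most like that of Aqp4 were ranked by the root mean square difference of log2 intensity, centred on each probe's mean, over the 6 arrays, as a description. Nrep came nearest at 0.44, then Sypl2 at 0.63, G0s2 at 0.66, Lrrc38 and Mettl21c at 0.72, against a range of 6.25 log2 units for Aqp4 over the arrays. All 5 were high on both SKRC39 arrays and on the array titled RXF_1 and low on the other arrays, as Aqp4 was. Nrep read 13.43 and 13.94 in SKRC39 and 8.39 and 8.44 in RXF393, and Sypl2, which encodes a protein of the junctional membrane system, read 14.28 and 14.57 against 9.34 and 9.11. For the other members the nearest genes were Armc9 for Aqp1, Zswim6 for Dag1, Mrpl10 for Sgca, Slc25a44 for Sgcb, Sec63 for Sgcd and H2ac13 for Utrn, at differences of 0.034 to 0.097. The patterns share 6 arrays, 2 of them with conflicting labels and 2 with disagreeing probes.

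**Figure D5:**
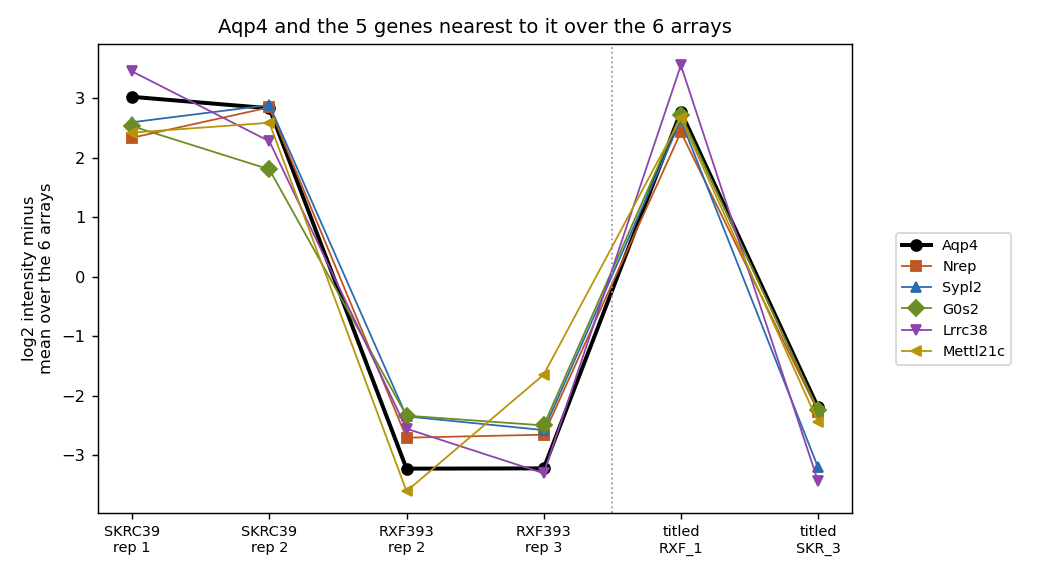
Log2 intensity minus the mean over the 6 arrays for Aqp4 (thick line) and the 5 genes with the smallest root mean square difference from it, by array, with the 2 arrays of conflicting labels right of the dotted line. All 6 genes lie above 0 on both SKRC39 arrays and on the array titled RXF_1 and below 0 on the other 3 arrays.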

How the data were processed

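Quadriceps RNA of 6 samples was measured on an Illumina mouse whole-genome beadchip. The main deposited table gives, per the file headers, each probe's linear intensity before normalization, with the p-value of its detection. A further deposited table gives intensity that the authors quantile-normalized in GenomeStudio (Gene Expression module 1.9.0), per the submitters' processing notes. No p-value or fold of a comparison was taken from the authors.

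Intensities were background-corrected by normexp with controls inferred from detection p-values, given an offset of 16, quantile-normalized over all 6 arrays and logged to base 2 with neqc (limma 3.58.1 under R 4.3.3). The offset understates changes of dim probes. A probe was tested if 2 or more arrays detected it with a p-value under 0.05, which left 17738. Moderated tests in limma (lmFit, then eBayes with trend) compared 2 RXF393 with 2 SKRC39 arrays, adjusted by Benjamini-Hochberg over these probes, with a threshold of 0.05. The fit was tested on simulated data. The fit used 4 arrays and the normalization all 6. The number of arrays limits the precision.

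A gene is its tested probe of highest mean over the 6 arrays. Of the probes, 34885 carry 1 symbol, 18 several and 10378 none. Where a group detected a probe on neither array, the fold is given as "at least", the brighter mean against the mean, per array, of the higher of its value and the lowest detected signal. The array's genome build is not given in the sources used here, so gene coordinates are left out, except for windows read from the RefSeq table. Members and lists were chosen with earlier results of these data known. Named were all members, from each pathway list the 3 genes of highest mean and up to 3 past the threshold, always Sspn, Dtna, Nos1 and Cav3 (some named by the rule are not reported here), the 5 genes nearest to Aqp4 and the nearest to each other member. Alternatives changed background, scaling, filter, variance model, arrays, grouping and pairing.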

Additional observations from a re-analysis of the deposited data

Results flagged for a closer look

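The array titled SKR_3, whose characteristics name RXF393, belongs to no group and entered no comparison. Probes of 3 of the 8 genes were more than 1 log2 unit above both SKRC39 arrays on it. Only probes of the 8 genes were searched. The share of all probes past this cut was not computed, so nothing is read from the number. The Dag1 probes read 12.87 and 12.49, where the higher SKRC39 array read 11.60 and 11.44. The Sgcb probes read 12.94 and 13.01, where the higher SKRC39 array read 11.69 and 10.82. The Sgcd probe read 8.47, where the higher SKRC39 array read 7.18. This array is also 1 of the 2 on which probes of 1 gene disagreed most, with 22.6% of genes differing by over 4-fold. The other is RXF393 replicate 3, with 25.2%. Groups of 2 arrays are too small for a test of single outlying values within a line.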

How the results depend on the processing

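Over the 17 alternatives that gave values, the change stayed negative for Aqp4 and positive for Sgcb, Dag1 and Sgcd. Grouped by title, however, the Sgcb, Dag1 and Sgcd changes were smaller than their standard errors. They were 0.40 ± 0.51 and 0.33 ± 0.71 for Sgcb, 0.09 ± 0.47 and 0.16 ± 0.44 for Dag1 and 0.19 ± 0.67 for Sgcd. The Aqp4 change of -6.15 was -4.08 without background correction, -5.18 with an offset of 50, -6.01 with median scaling (adjusted p = 0.0885), -5.97 with cyclic loess, -4.24 in the authors' table, -5.75 with all 6 arrays grouped by characteristics, alone or with the replicate block, and -2.44 grouped by title. It was -6.15 with the replicate block, and -6.24 to -6.05 when 1 array was left out. The median of all genes moved from 0.07 to -0.03 with median scaling and to -0.07 with cyclic loess. Requiring detection on all 6 arrays removes Aqp4 from the test. Grouped by title, the Aqp1 main probe turned to -0.13 and Utrn to -0.20, and the bright Sgca probes to 0.11 and 0.17. The count of probes past the threshold, 44, was 0 by limma with median scaling, cyclic loess, no intensity trend or grouping by title (at an unadjusted p below 0.05, 2288, 2383, 2144 and 32 probes, against 2278 in the comparison as reported), 29 in the authors' table, 202 with detection on all 6 arrays, 2838 by characteristics, 561 with the replicate block, 5175 with the block and characteristics, and 25 to 734 with 1 array left out (25 without RXF393 replicate 3, 84 without SKRC39 replicate 1, 216 without SKRC39 replicate 2, 734 without RXF393 replicate 2). Of the members, 1 passed, and with 1 array left out 1 to 1. The count was 0 with median scaling, cyclic loess, detection on all 6 arrays, no trend or title. It was 2 of 7 by characteristics (Aqp4 and Sgcb) and 4 of 7 with the block and characteristics (Dag1 and Sgcd added). In these 2 settings 2838 and 5175 of all 17738 probes passed, the share to set beside the member and pathway counts. The members were chosen on this comparison, so nothing is read from their counts. Of the pathway genes, 0 passed, against 1 with detection on all 6 arrays or no filter (Synm, adjusted p = 0.0113 and 0.0480), 11 by characteristics, 2 with the replicate block (Synm and Col6a2), 20 with the block and characteristics, and 0 to 4 with 1 array left out. The cause was not tested. The replicate numbers in the array descriptions differ from those used here, which follow the titles. They pair SKRC39 replicate 1 with RXF393 replicate 2, and SKRC39 replicate 2 with RXF393 replicate 3. Within-line differences of these 4 arrays correlated at 0.51. By characteristics, the 3 numbers gave 0.49, -0.12 and 0.46, and the -0.12 came from the 2 arrays with conflicting labels. What the numbers stand for was not tested. The comparison as reported is unpaired, and values with the replicate block are given above as an alternative.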
